A study of Arabidopsis thaliana with 24 samples.

Results

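COR15A (AT2G42540), COR15B (AT2G42530), LEA4-5 (AT5G06760) and AT3G02480 are 4 Arabidopsis genes for proteins of the cold and dehydration response, among 13286 genes with a probe set of their own in the annotation used. They were selected by name with measured values in view. LEA4-5 and AT3G02480 had been among the largest differences after BTH in the mkk1/mkk2 double mutant, and the spread of the untreated double mutant was part of the choice. Values on the mkk1/mkk2 arrays are therefore given as a description, with no test, and tests were made on the other arrays. Each gene had 1 single-gene probe set, so no choice between probe sets arose. COR15A and COR15B are neighbouring paralogs on chromosome 2 with 0 annotated genes between them. LEA4-5 lies on chromosome 5 and AT3G02480 on chromosome 3. Whether the 2 COR15 probe sets also bind each other's transcript was not tested.

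Transcripts of whole plants were measured on 24 ATH1 arrays, in 8 groups of 3 arrays that carry the letters A, B and C. The groups were mkk1/mkk2, mkk2 (Garlic_511-HO1), mkk1 (SALK_027645) and the wild type Col-0, each 24 h after BTH and untreated. Plants of every group grew in soil in short days, the 8 h light period at 21 °C and the 16 h night at 16 °C. BTH, or benzothiadiazole, is a man-made mimic of salicylic acid, a hormone of plant defence. The mutants are knockouts of MAP kinase kinases, 1 allele for each single mutant. The alleles joined in mkk1/mkk2 are not named in the labels, and MKK1 and MKK2 themselves were not analysed here. A spray of 100 µM BTH is recorded for 6 samples, those of mkk1/mkk2 and mkk2 titled as BTH. The treatment note of the other 18, Col-0 BTH and mkk1 BTH included, reads control treatment, and a free-text line calls every sample untreated wild type. The groups used here rest on titles and source names. No group was sprayed without BTH, so that spraying, elapsed time and BTH cannot be told apart. Untreated Col-0 is titled Time 0 and the untreated mutants carry no time. The labels do not say whether replicates were separate plants, so p-values measure only the spread between these samples.

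Late embryogenesis abundant (LEA) proteins are small, very hydrophilic proteins that accumulate when cells lose water, in drying seeds and in leaves under cold, drought or salt. COR15A and COR15B are imported into the chloroplast, where they protect membranes during freezing, and their genes are targets of the CBF transcription factors. LEA4-5 belongs to the group 4 LEA proteins, which accumulate in seeds and in tissue short of water. AT3G02480 encodes a small LEA-type protein whose transcript is known to respond to abscisic acid, the hormone of water deficit. MKK1 and MKK2 act together upstream of the kinase MPK4, and their joint loss is known to give small plants with active defence. MKK2 is also known as a kinase of cold and salt signalling.

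In the double mutant COR15A and COR15B were below their Col-0 levels. LEA4-5 and AT3G02480, which were chosen for their difference after BTH there, were high after BTH. All levels below are log2 expression values, on which a difference of 1 is 2-fold, and array medians lay between 5.57 and 5.78. Levels are compared within a gene only.

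COR15A had 8.79, 6.99 and 7.92 on the mkk1/mkk2 BTH arrays A, B and C, against 6.31, 6.73 and 7.90 on the untreated mkk1/mkk2 arrays. In Col-0 it had 9.46, 9.44 and 10.53 after BTH, against 11.39, 11.49 and 10.77 untreated. The double mutant groups overlapped each other, whereas the Col-0 groups did not. In mkk2 COR15A had 9.33, 8.75 and 9.62 after BTH, against 10.63, 9.91 and 10.68 untreated. In mkk1 it had 10.06, 9.21 and 9.50 after BTH, against 9.63, 10.17 and 10.24 untreated. The mkk2 groups did not overlap and the mkk1 groups did. In order of their means the groups ran from untreated mkk1/mkk2 (6.98 ± 0.82, SD, n = 3) through mkk1/mkk2 BTH, mkk2 BTH, mkk1 BTH, Col-0 BTH, untreated mkk1 and untreated mkk2 to untreated Col-0 (11.22 ± 0.39). Only the last neighbours in that order, untreated mkk2 and untreated Col-0, did not overlap.

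COR15B, the close relative of COR15A, had 9.12, 8.79 and 9.29 on the mkk1/mkk2 BTH arrays, against 8.07, 8.35 and 9.59 untreated. In Col-0 it had 10.24, 10.42 and 11.11 after BTH, against 11.54, 11.87 and 11.21 untreated. As for COR15A, the double mutant groups overlapped and the Col-0 groups did not. In mkk2 COR15B had 9.59, 9.10 and 9.97 after BTH, against 10.88, 9.84 and 11.05 untreated. In mkk1 the values were 10.20, 9.64 and 10.02 after BTH, against 9.07, 10.04 and 10.52 untreated. Both single mutants overlapped between BTH and untreated, the wide spread in untreated mkk1 coming with array A. The order of means was again lowest in untreated mkk1/mkk2 (8.67 ± 0.81, SD, n = 3), then mkk1/mkk2 BTH, mkk2 BTH, untreated mkk1 and mkk1 BTH, then Col-0 BTH and untreated mkk2, with untreated Col-0 highest (11.54 ± 0.33). Neighbours without overlap were mkk1 BTH and Col-0 BTH, and untreated mkk2 and untreated Col-0.

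LEA4-5 had 8.52, 6.68 and 6.71 on the mkk1/mkk2 BTH arrays, against 5.75, 3.97 and 5.79 on the untreated mkk1/mkk2 arrays. The BTH arrays all lay above the untreated ones, and untreated array B was the lowest of the 24. In Col-0 LEA4-5 had 4.83, 4.73 and 5.42 after BTH, against 5.89, 5.87 and 5.40 untreated. In mkk2 it had 4.62, 4.79 and 4.56 after BTH, against 4.69, 4.63 and 4.75 untreated. In mkk1 it had 5.16, 4.78 and 4.26 after BTH, against 4.95, 4.28 and 4.29 untreated. Within Col-0, mkk2 and mkk1 the treated and untreated arrays overlapped. These 18 arrays spanned 4.26 to 5.89, and all of them outside untreated Col-0 lay below the array medians, so LEA4-5 was dim there. In order of their means the groups began with untreated mkk1 (4.51 ± 0.38, SD, n = 3), followed by mkk2 BTH, untreated mkk2, mkk1 BTH, Col-0 BTH, untreated mkk1/mkk2, untreated Col-0 and mkk1/mkk2 BTH (7.30 ± 1.05), and only the last neighbours did not overlap.

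AT3G02480 had 9.85, 6.99 and 8.55 on the mkk1/mkk2 BTH arrays, against 6.24, 4.94 and 6.23 untreated. All 6 arrays of the double mutant lay above the other 18, which spanned 3.46 to 4.65. In Col-0 AT3G02480 had 4.05, 3.61 and 3.83 after BTH, against 4.65, 4.22 and 3.96 untreated. In mkk2 it had 3.87, 3.66 and 3.52 after BTH, against 3.86, 4.29 and 4.11 untreated. In mkk1 it had 4.48, 3.46 and 3.49 after BTH, against 4.17, 4.20 and 3.79 untreated. These 6 groups all lay well below the array medians, and each overlapped its neighbour in the order mkk2 BTH, mkk1 BTH, Col-0 BTH, untreated mkk1, untreated mkk2 and untreated Col-0. Untreated mkk1/mkk2 (5.80 ± 0.75, SD, n = 3) and mkk1/mkk2 BTH (8.46 ± 1.43) followed, each without overlap.

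**Figure D1:**
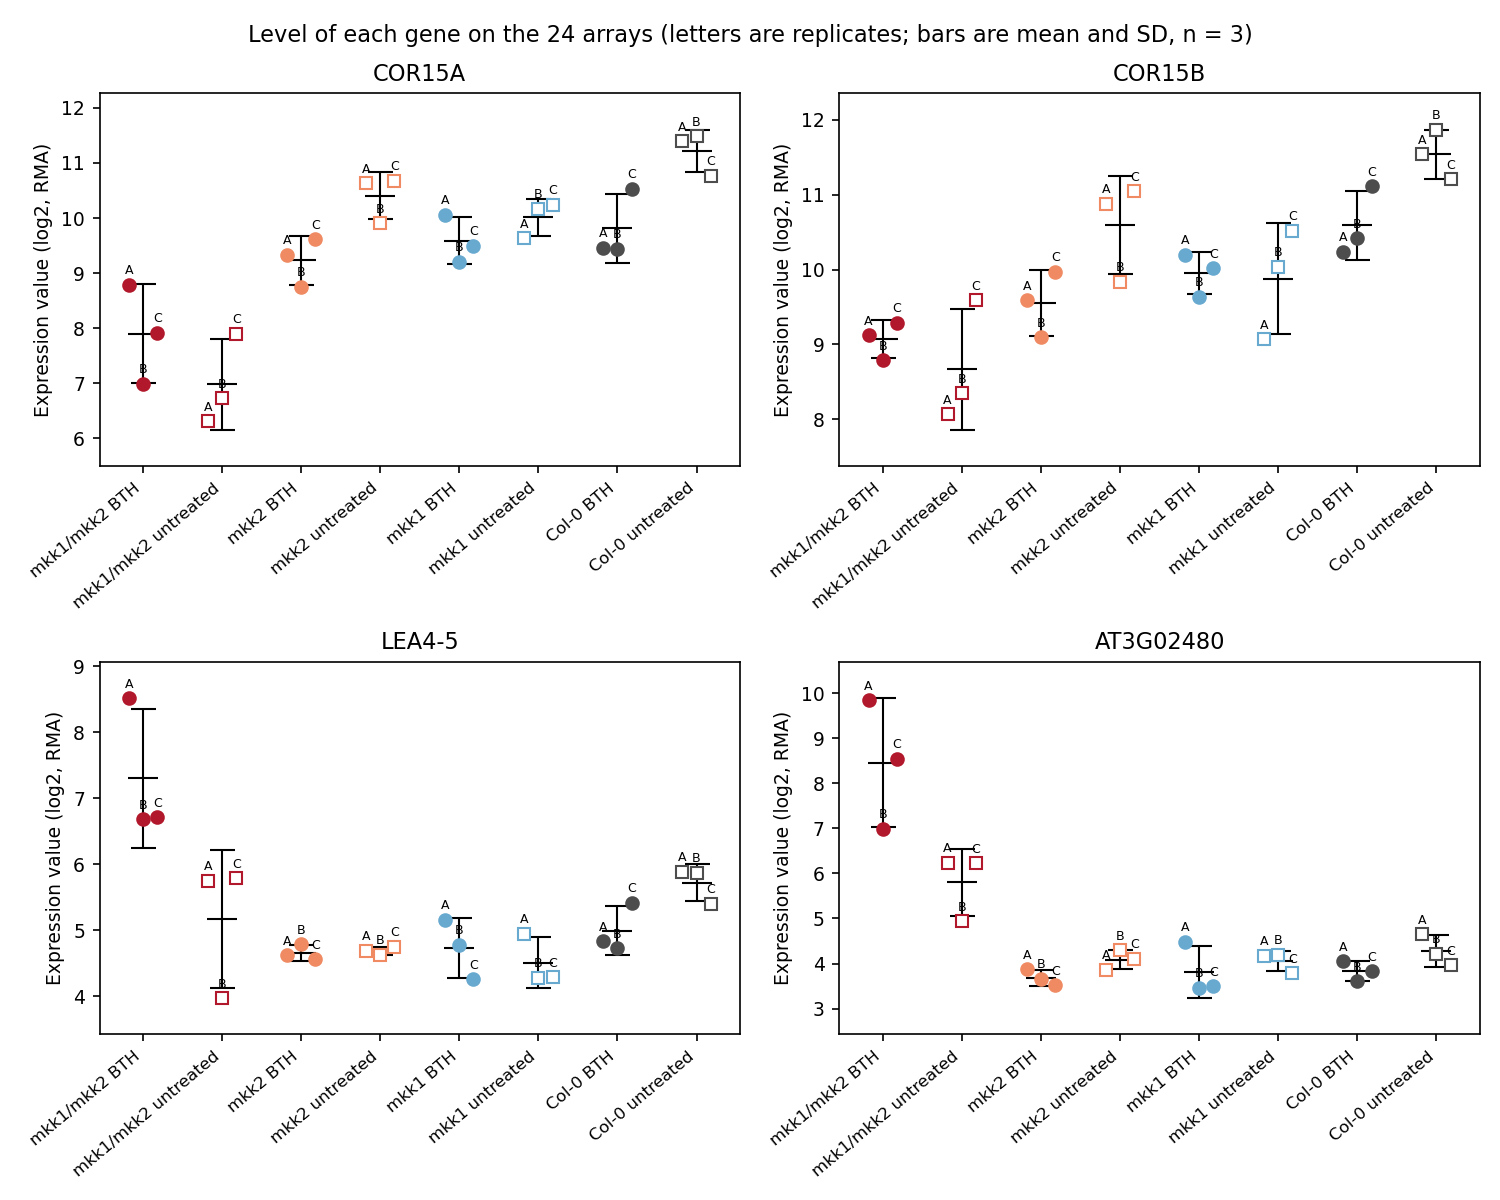
Log2 expression value (vertical axes, a separate scale in each panel) of the 4 genes on the 24 arrays, with BTH as filled circles and untreated as open squares, letters for the replicates, and bars for the mean and SD of 3 arrays. COR15A and COR15B are lowest in mkk1/mkk2 and highest in untreated Col-0, while LEA4-5 and AT3G02480 are highest in mkk1/mkk2 after BTH.

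Between BTH-treated and untreated double mutants the difference of LEA4-5 was 2.13 ± 0.44 on the log2 scale (limma standard error, 3 arrays a group) and that of AT3G02480 was 2.66 ± 0.48. COR15A differed by 0.92 ± 0.44 and COR15B by 0.40 ± 0.40, with overlapping arrays. So 2 of the 4 genes were higher without overlap and 0 were lower, where 5.55% of all 22746 probe sets were higher and 7.21% lower in that way. The genes were chosen on this contrast, and nothing is read from these counts. Single arrays moved the sizes. Without BTH array A the difference was 1.97 for AT3G02480 and 1.52 for LEA4-5, and without BTH array B it was 3.40 for AT3G02480. COR15B differed by 0.10 without untreated array A and by 0.86 without untreated array C. COR15A differed by 0.47 without BTH array A, 0.58 without untreated array A and 1.38 without untreated array C or BTH array B.

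Set against Col-0, untreated mkk1/mkk2 had COR15A at 6.98 ± 0.82 and untreated Col-0 at 11.22 ± 0.39, a difference of -4.24 ± 0.44 on the log2 scale or 18.9-fold. COR15B was at 8.67 ± 0.81 in untreated mkk1/mkk2 and at 11.54 ± 0.33 in untreated Col-0, a difference of -2.87 ± 0.40. For neither gene did the arrays overlap. AT3G02480 was higher by 1.53 ± 0.48, also without overlap. LEA4-5 differed by -0.55 ± 0.44 with overlap, and by 0.05 without untreated mkk1/mkk2 array B, so its direction rested on that array. The counts without overlap were 1 higher and 2 lower of 4, beside 17.2% higher and 18.6% lower of all probe sets.

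After BTH, mkk1/mkk2 against Col-0 gave 2 genes higher and 2 lower, all without overlap, beside 18% higher and 21.2% lower of all probe sets. AT3G02480 averaged 8.46 ± 1.43 in mkk1/mkk2 BTH and 3.83 ± 0.22 in Col-0 BTH, a difference of 4.63 ± 0.48. For LEA4-5 the averages were 7.30 ± 1.05 in mkk1/mkk2 BTH and 4.99 ± 0.37 in Col-0 BTH, a difference of 2.31 ± 0.44. COR15A (-1.91 ± 0.44) and COR15B (-1.52 ± 0.40) were lower. Comparisons with Col-0 share its arrays, so these differences and those of the single mutants given next are not independent of each other.

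Replicates of these genes were spread more widely than most probe sets in several groups. In untreated mkk1/mkk2 the SD was 1.04 for LEA4-5, 0.82 for COR15A, 0.81 for COR15B and 0.75 for AT3G02480, against a median SD of 0.309 over all probe sets in that group. Between 88.4% (AT3G02480) and 95.6% (LEA4-5) of probe sets had a smaller SD there. The spread in this group was part of the choice of the genes, so nothing is read from these ranks. The untreated mkk1/mkk2 arrays as a whole were spread, with array A at a mean correlation of 0.933 with its own group and arrays B and C at 0.961 and 0.962. Array A was also the highest of the 24 in a measure of RNA quality, the log2 signal of the GAPDH control at its 3′ end less that at its 5′ end, which was 0.775, against 0.360 on B and 0.065 on C. Their part in the values of the 4 genes was not tested. The replicates did not rank the genes alike, as untreated array A was lowest for COR15A and COR15B while array B was lowest for LEA4-5 and AT3G02480.

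After BTH the double mutant arrays were close to each other over all probe sets, with a median SD of 0.133, and 3 of the 4 genes had larger ratios to the median than in the untreated group. AT3G02480 had an SD of 1.43, 10.8 times that median, LEA4-5 7.91 times, COR15A 6.76 times and COR15B, with a smaller ratio than its 2.62 in the untreated group, 1.91 times. Array A was the highest of its group for AT3G02480, LEA4-5 and COR15A and array C for COR15B. The GAPDH difference of that array A was -0.005, against 0.215 on B and 0.315 on C. Wide spread was also seen in the other genotypes. In mkk1, 99.4% of probe sets had a smaller SD than COR15B untreated. After BTH there, 99.2% had a smaller SD than AT3G02480, 97.4% than LEA4-5 and 96.9% than COR15A. The share was 96.4% for COR15B in untreated mkk2, and for COR15A 95.6% in mkk2 BTH and 94.5% in Col-0 BTH. For the COR15 genes the lowest share in any group was 85.6%, that of COR15B in mkk1/mkk2 BTH. At the other end, LEA4-5 in untreated mkk2 had an SD of 0.060, and 7.57% of probe sets had a smaller one.

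**Figure D2:**
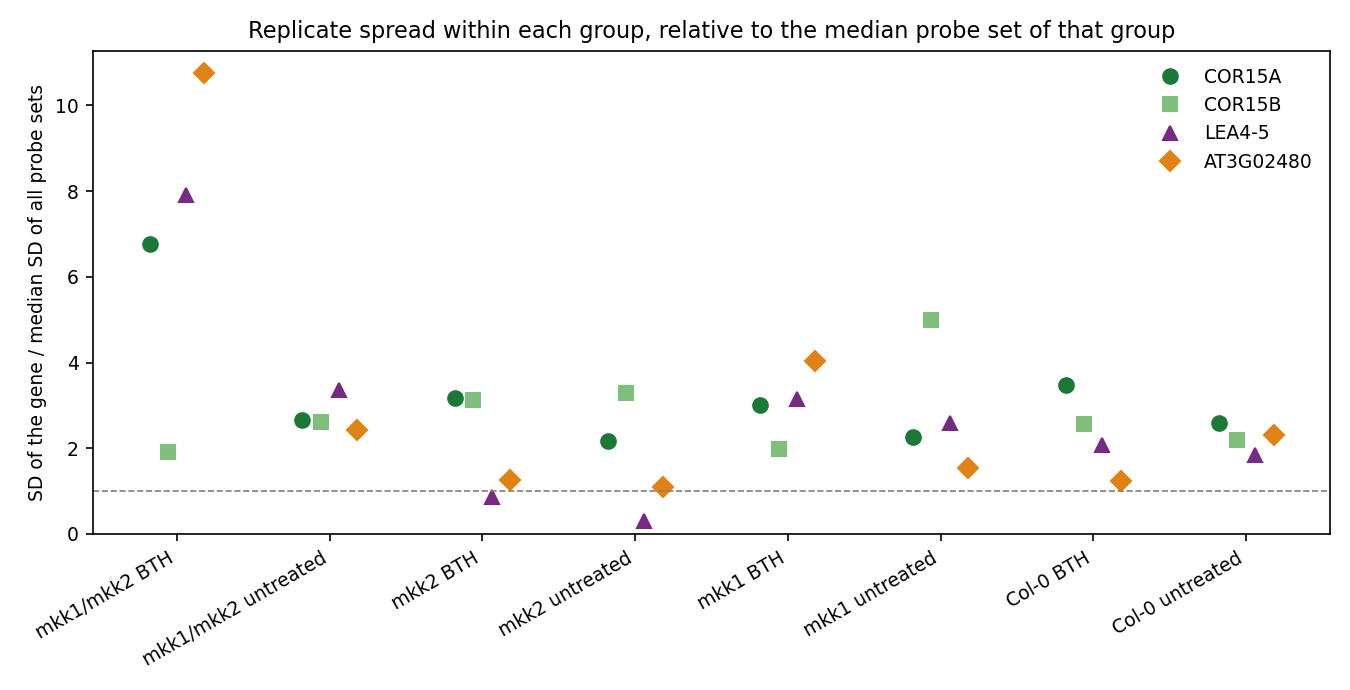
SD of each gene over the 3 arrays of a group divided by the median SD of all 22746 probe sets in that group (vertical axis, a ratio), for the 8 groups, with the dashed line at 1. AT3G02480, LEA4-5 and COR15A in mkk1/mkk2 after BTH lie highest, at 10.8, 7.91 and 6.76.

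Across the 24 arrays COR15A and COR15B followed each other (Pearson r = 0.914), also over the 18 arrays outside the double mutant (0.904) and after group means were taken away (0.821). LEA4-5 and AT3G02480 had r = 0.868 over the 24 arrays, 0.526 over the 18 and 0.947 over the 6 double mutant arrays. After group means were taken away their r was 0.796 over the 24 and 0.549 over the 18. Both genes were chosen for their difference after BTH in mkk1/mkk2, so nothing is read from their r over arrays that include it. COR15A and AT3G02480 had r = -0.529 over the 24 arrays, yet 0.596 within the 18 and 0.800 within the 6. With group means taken away, r for this pair was 0.557 over the 24 and 0.233 over the 18. The negative value over all arrays thus went with the difference between mkk1/mkk2 and the other genotypes. These are descriptions over arrays that share genotype and treatment within groups.

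**Figure D3:**
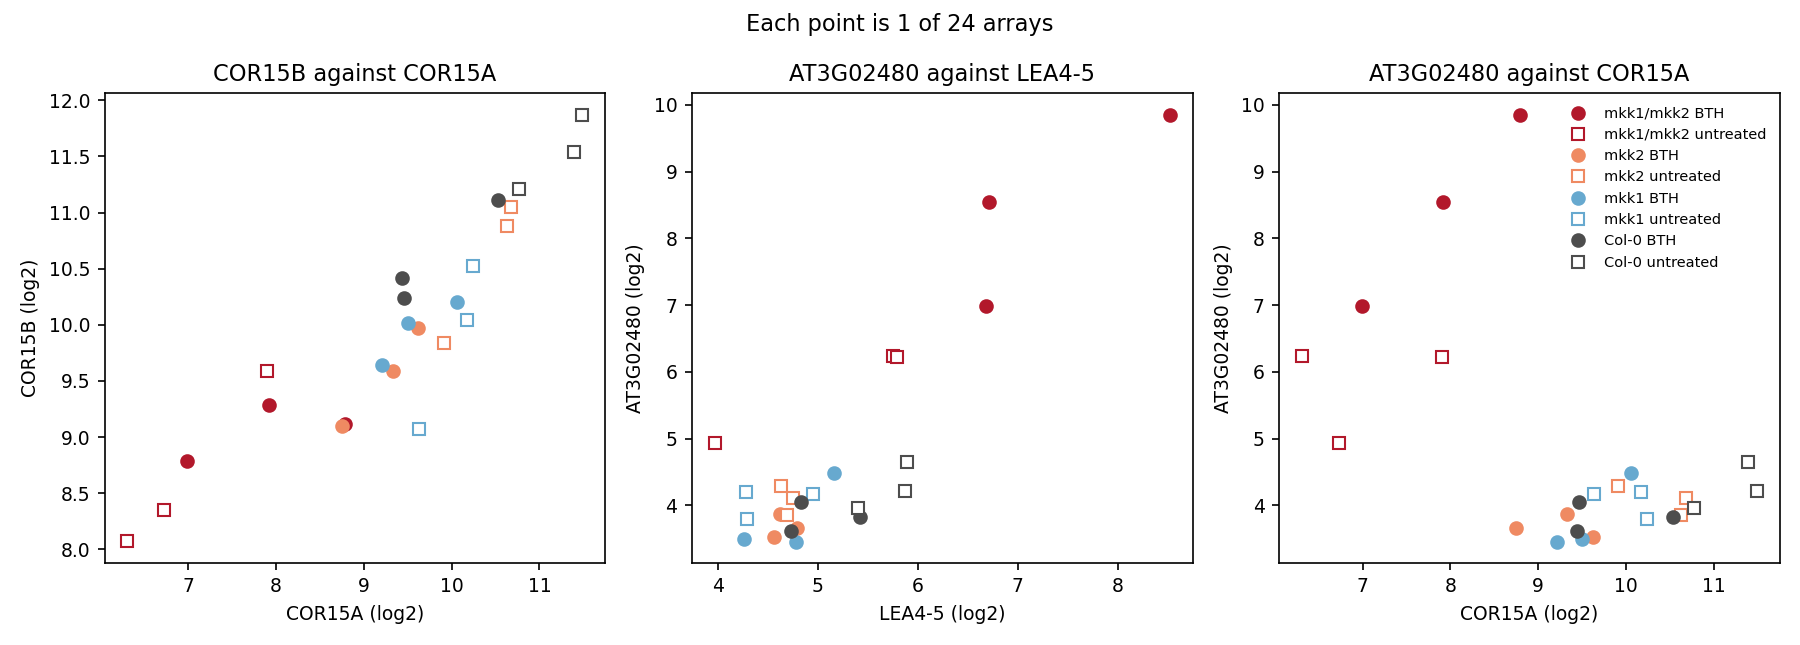
Each point is 1 of the 24 arrays, placed by the log2 values of 2 genes, with filled circles for BTH and open squares for untreated plants. The left panel shows COR15A and COR15B along 1 band (r = 0.914), the middle panel LEA4-5 and AT3G02480 spread out in mkk1/mkk2 alone, and the right panel mkk1/mkk2 apart from the other genotypes.

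The genes whose levels were most like each one were taken by Pearson r over the 24 arrays among 13285 others. For COR15A they were AT2G34460 (0.954), AT2G18245 (0.947), AT5G37360 (0.942), AT5G16990 (0.938) and AT1G78995 (0.936). For COR15B they were AT4G36530 (0.938), AT1G78995 (0.934), AT5G57040 (0.933), scpl20 (0.930) and CYP71B34 (0.917). COR15A came 7th for COR15B, and COR15B came 23rd for COR15A. For AT3G02480 the 5 were AT4G23680 (0.953), UGT76E12 (0.952), AT5G57510 (0.938), AT5G04250 (0.936) and PAP20 (0.934). Over the 18 arrays outside the double mutant these had r between 0.101 (PAP20) and 0.434 (AT4G23680). LEA4-5 came 60th for AT3G02480. For LEA4-5 they were UGT76E12 (0.890), AT3G02480 (0.868), AT5G01300 (0.858), AT5G61820 (0.836) and AT2G23110 (0.817), the last a gene of the LEA list. Over the 18 arrays these had r of 0.448 for UGT76E12, 0.526 for AT3G02480, 0.790 for AT5G01300, 0.732 for AT5G61820 and 0.271 for AT2G23110. The 18-array r of the COR15 partners lay between 0.800 (AT5G37360) and 0.919 (AT5G57040).

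Whether BTH changed the 4 genes in the other genotypes was tested with limma on the 18 Col-0, mkk1 and mkk2 arrays, with p-values adjusted over all 22746 probe sets. In Col-0, 1 of the 4 genes was called at an adjusted p under 0.05, beside 12.6% of all probe sets. COR15A was lower by 1.41 on the log2 scale after BTH (difference -1.41 ± 0.33, 2.65-fold, adjusted p = 0.0103), at 9.81 ± 0.62 in Col-0 BTH and 11.22 ± 0.39 in untreated Col-0. The call was narrow. The adjusted p was 0.0511 with all 24 arrays in the fit and 0.0569 with the 6 Col-0 arrays alone. It was 0.0522 without untreated Col-0 array B and 0.0558 without Col-0 BTH array B. COR15B differed by -0.95 ± 0.37 (adjusted p = 0.121), with no overlap of arrays. LEA4-5 differed by -0.73 ± 0.24 (adjusted p = 0.0556), and AT3G02480 by -0.45 ± 0.24 (adjusted p = 0.285). The LEA4-5 value lay at the threshold and was called under several other settings. Its adjusted p was 0.0457 after a further quantile normalization, 0.0363 with arrays centred on their medians and 0.0455 with a trended, robust variance. Leaving out untreated Col-0 array C (0.0339), Col-0 BTH array C (0.0219), untreated mkk1 array A (0.0382), mkk1 BTH array A (0.0417) or mkk1 BTH array C (0.0354) also gave a call. LEA4-5 stayed uncalled in 13 of the 18 fits with 1 array left out (adjusted p up to 0.205). It also stayed uncalled in 4 of 8 other settings (up to 0.401).

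In mkk2, 1 of 4 genes was called, beside 14.3% of all probe sets. COR15A differed by -1.17 ± 0.33 (2.26-fold lower, adjusted p = 0.0257), at 9.23 ± 0.44 in mkk2 BTH and 10.41 ± 0.43 in untreated mkk2. With all 24 arrays in the fit its adjusted p was 0.103. It was 0.0993 without untreated mkk2 array A, 0.0972 without untreated array C, 0.0581 without BTH array A and 0.120 without BTH array B. COR15B differed by -1.04 ± 0.37 (adjusted p = 0.0818) and was called without untreated mkk1 array A (0.0454) or untreated mkk2 array B (0.0172). AT3G02480 differed by -0.40 ± 0.24 (adjusted p = 0.342). LEA4-5 differed by -0.03 ± 0.24 (adjusted p = 0.956), with a 95% interval of -0.53 to 0.47.

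In mkk1, 0 of 4 were called by limma, beside 11.7% of all probe sets. COR15A differed by -0.42 (95% interval -1.13 to 0.28), COR15B by 0.08 (-0.72 to 0.87), LEA4-5 by 0.23 (-0.27 to 0.73) and AT3G02480 by -0.24 (-0.76 to 0.28). The adjusted p-values lay between 0.519 and 0.949, and 0 of the 4 had an unadjusted p under 0.05.

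Whether the response to BTH itself differed was tested as the difference of differences. For mkk1 minus Col-0 it was 0.98 ± 0.47 for COR15A (adjusted p = 0.391), 1.03 ± 0.53 for COR15B (0.428), 0.95 ± 0.33 for LEA4-5 (0.300) and 0.20 ± 0.35 for AT3G02480 (0.858). No gene of the 4 was called, and 0% of all probe sets were, although 2966 had an unadjusted p under 0.05. For mkk2 minus Col-0 LEA4-5 had 0.69 ± 0.33 (adjusted p = 0.925), and COR15A, COR15B and AT3G02480 had 0.23 ± 0.47, -0.09 ± 0.53 and 0.04 ± 0.35 (adjusted p = 0.998 each). Again 0 of 4 were called, beside 0.0176% of all probe sets, with 1257 at an unadjusted p under 0.05. With array weights, however, the mkk1 response was called for COR15A (1.54, adjusted p = 0.0085), COR15B (1.38, 0.0175) and LEA4-5 (1.39, 0.0047), and the mkk2 response for LEA4-5 (1.05, 0.0093). That setting also called 3864 of all probe sets for mkk1 and 2573 for mkk2.

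**Figure D4:**
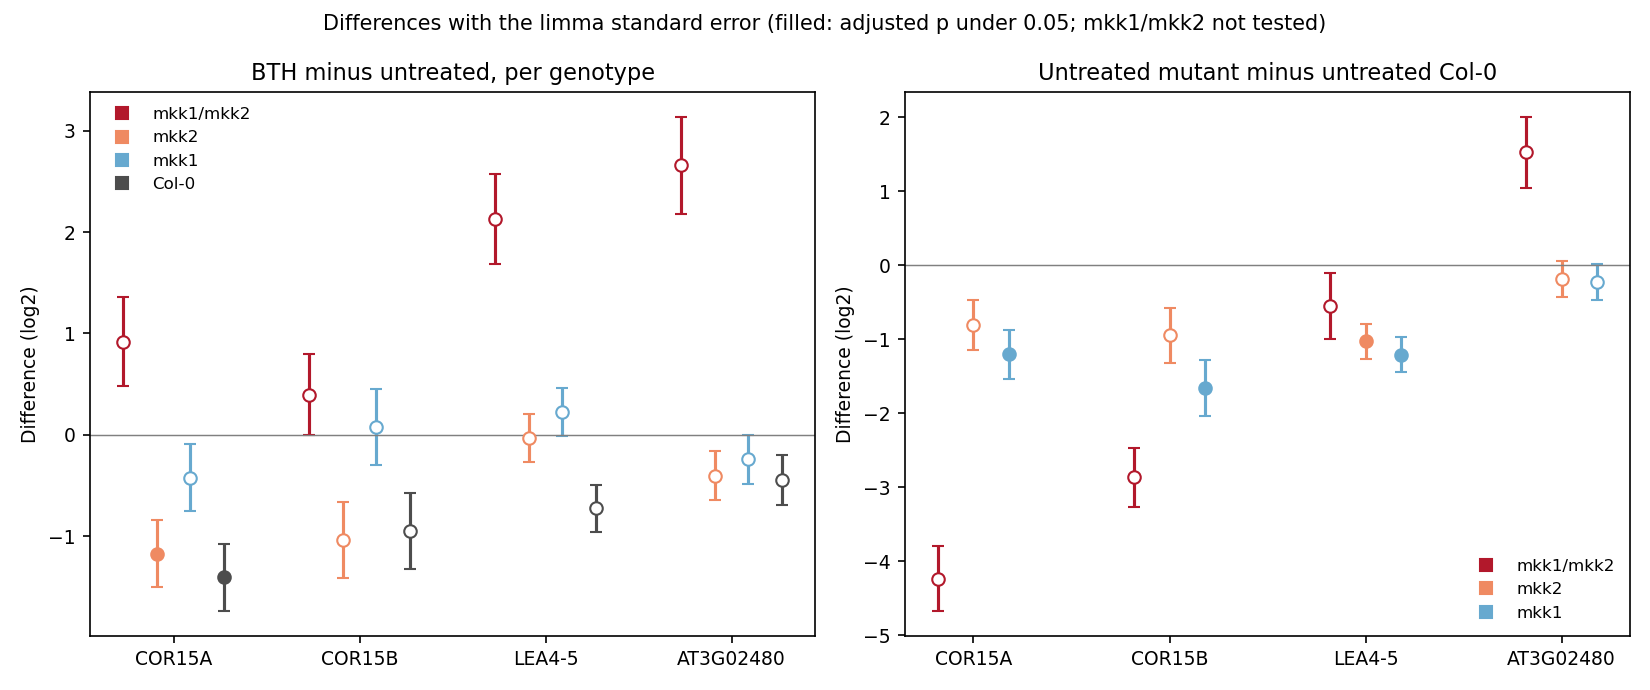
Log2 difference (vertical axes) of each gene between BTH-treated and untreated plants of each genotype on the left, and between each untreated mutant and untreated Col-0 on the right, with the limma standard error as bars. Filled points have an adjusted p under 0.05, mkk1/mkk2 was not tested, and COR15A in Col-0 (-1.41) and mkk2 (-1.17) are the filled points on the left.

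Untreated single mutants were lower than untreated Col-0 in part of the set. In mkk1, 3 of 4 genes were called lower, beside 22.8% of all probe sets called in either direction. COR15B averaged 9.88 ± 0.74 in untreated mkk1 and 11.54 ± 0.33 in untreated Col-0, a difference of -1.66 ± 0.37 (3.17-fold lower, adjusted p = 0.00519). LEA4-5 averaged 4.51 ± 0.38 in untreated mkk1 and 5.72 ± 0.28 in untreated Col-0, a difference of -1.21 ± 0.24 (adjusted p = 0.00214). Both calls held without any 1 of the 18 arrays. COR15A differed by -1.20 ± 0.33 (adjusted p = 0.0166). For all 3 the arrays did not overlap. AT3G02480 differed by -0.22 ± 0.24 (adjusted p = 0.592). With all 24 arrays in the fit the adjusted p was 0.0662 for COR15A and 0.0671 for LEA4-5. COR15A was also not called without untreated Col-0 array A (0.0679) or B (0.0690) or without untreated mkk1 array A (0.0776).

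In mkk2, 1 of 4 genes was called, beside 12.2% of all probe sets. LEA4-5 averaged 4.69 ± 0.06 in untreated mkk2 and 5.72 ± 0.28 in untreated Col-0, a difference of -1.03 ± 0.24 (2.04-fold lower, adjusted p = 0.0123). Its adjusted p was 0.173 with all 24 arrays, 0.0575 with the compared arrays alone, 0.0678 without untreated Col-0 array A and 0.0523 without array B. COR15A (-0.81 ± 0.33, adjusted p = 0.125) and COR15B (-0.95 ± 0.37, adjusted p = 0.111) also had arrays that did not overlap, and AT3G02480 differed by -0.19 ± 0.24 (adjusted p = 0.676).

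Single mutants were also set against Col-0 after BTH. In mkk1 BTH against Col-0 BTH 0 of 4 genes were called, beside 3.28% of all probe sets, with COR15B at -0.64 ± 0.37 (adjusted p = 0.352, no overlap) and the others between -0.26 (LEA4-5) and -0.02 (AT3G02480). In mkk2 BTH against Col-0 BTH 0 of 4 were called, beside 4.65%, with COR15B at -1.04 ± 0.37 (adjusted p = 0.121, no overlap), COR15A at -0.58 ± 0.33, LEA4-5 at -0.34 ± 0.24 and AT3G02480 at -0.15 ± 0.24. Of these 8 differences 1 had an unadjusted p under 0.05, that of COR15B in mkk2.

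Arrays of the single mutants and of Col-0 differed in their hybridization controls, although the labels name no hybridization batch. The difference between the spiked-in bioC and bioD control probe sets lay between -3.61 and -3.33 on the 12 mkk1 and mkk2 arrays, against -2.23 to -1.77 on the 12 mkk1/mkk2 and Col-0 arrays. The GAPDH difference, the RNA quality measure used above, also set the single mutants apart from Col-0. No Col-0 array lay below 0.225 in it, and no mkk1 or mkk2 array lay above 0.125. Whatever these control differences mark cannot be told apart from genotype in comparisons of mkk1 or mkk2 with Col-0. The part of RNA quality in the called differences of the single mutants was not tested. For bioC and bioD, BTH and untreated arrays overlapped in Col-0, mkk1 and mkk2. In mkk1/mkk2 they did not, at -2.23 to -2.11 after BTH and -2.07 to -1.77 untreated. The mkk1/mkk2 BTH arrays also lay below every Col-0 array, whose lowest value was -2.095. The part of this in the mkk1/mkk2 values of the 4 genes was not tested. Clock phase and harvest time were represented by GI alone, a clock gene. GI had 7.12, 6.98 and 6.90 in untreated mkk1 and averaged 6.72 ± 0.08 in untreated mkk2 and 7.07 ± 0.59 in untreated mkk1/mkk2, against 5.98 ± 0.38 in untreated Col-0. It was called higher in mkk1 (1.02 ± 0.30, limma adjusted p = 0.0227), but not without 4 of the 18 arrays left out one at a time (up to 0.116, without untreated Col-0 array A). Its part in the values of the 4 genes was not tested.

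Of the cell and organ markers, few had a single-gene probe set in the annotation used, and only those are called measured here. The array had 8730 probe sets without a gene name in that annotation, and the other markers were not looked for among them. RCA, a leaf photosynthesis gene and the only 1 of 11 leaf markers measured, was between 12.08 and 13.61 on every array. Of 12 root markers 2 were measured. PYK10, a root beta-glucosidase, was at 9.40, 9.71 and 9.07 in mkk1/mkk2 BTH and 7.76, 9.53 and 9.68 in untreated mkk1/mkk2, against 7.24, 5.16 and 3.53 in Col-0 BTH and 4.23, 5.02 and 4.68 in untreated Col-0. PYK10 was at 8.37, 8.16 and 7.30 in untreated mkk1, higher than in untreated Col-0 by 3.30 (limma adjusted p = 0.0231, but 0.0840 without untreated Col-0 array A). EXP7, a root hair expansin, stayed between 3.70 and 4.91. None of 11 seed markers was measured (0), and VEX1, 1 of 7 flower and pollen markers, was between 3.73 and 4.42. Of 8 senescence markers 2 were measured, SAG29 and WRKY53. SAG29, a sugar transporter of ageing leaves, had 8.66, 7.55 and 7.56 in mkk1/mkk2 BTH and 7.50, 5.97 and 7.49 in untreated mkk1/mkk2, against 6.02, 5.18 and 5.02 in Col-0 BTH and 7.52, 7.15 and 7.41 in untreated Col-0. Its array A was the highest after BTH in mkk1/mkk2 and its array B the lowest untreated, as for LEA4-5 and AT3G02480. WRKY53, a transcription factor of early leaf senescence, had 7.70, 8.12 and 8.14 in mkk1/mkk2 BTH and 6.32, 8.08 and 8.06 in untreated mkk1/mkk2, against 8.18, 8.44 and 7.99 in Col-0 BTH and 4.75, 7.68 and 8.54 in untreated Col-0. Its array A was the lowest in both mkk1/mkk2 groups. In whole plants fewer cells of a type and less RNA per cell cannot be told apart. The part of organ makeup or leaf age in the levels of the 4 genes was not tested.

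Other LEA, dehydrin and dehydration genes were set beside the 4. From a list of 45 cold, dehydrin and LEA genes, 19 had a single-gene probe set. A further list of 22 was added from the annotation, 41 genes in all. On all 24 arrays 21 of the 41 stayed below 4.5. After BTH in mkk1/mkk2, 5 of 41 were higher without overlap and 0 lower, beside 5.55% higher and 7.21% lower of all probe sets, with a median difference of -0.02. They were COR27, LEA4-2, AT3G17520, DI19 and ALDH7B4. COR27, LEA4-2 and AT3G17520 were among the genes below 4.5 throughout. In mkk1/mkk2 COR27 averaged 4.12 after BTH and 3.79 untreated, LEA4-2 3.50 and 3.22, and AT3G17520 3.75 and 3.32. ALDH7B4, an aldehyde dehydrogenase raised by turgor loss, averaged 10.97 ± 0.24 in mkk1/mkk2 BTH and 9.93 ± 0.17 in untreated mkk1/mkk2, and 8.21 ± 0.25 in Col-0 BTH and 8.37 ± 0.11 in untreated Col-0. The largest difference was that of the dehydrin LTI30 (2.40 ± 0.71), whose arrays overlapped, at 9.78, 7.62 and 8.77 in mkk1/mkk2 BTH, against 4.24, 6.34 and 8.39 untreated. DI19, a zinc finger protein of the drought response, averaged 11.02 ± 0.02 in mkk1/mkk2 BTH, against 8.87, 10.93 and 10.75 untreated, so that most of its difference came with untreated array A. AT2G23110, the LEA-list gene most like LEA4-5, was at 5.83, 4.46 and 4.15 after BTH, against 3.52, 3.54 and 4.89 untreated.

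Untreated mkk1/mkk2 against untreated Col-0 gave 7 of the 41 higher and 7 lower without overlap, with a median of -0.05, near the 17.2% higher and 18.6% lower of all probe sets. HIRD11, a small dehydrin, was lower by 2.65 (difference -2.65 ± 0.71), at 6.93, 10.78 and 10.53 in untreated mkk1/mkk2, against 12.05, 12.10 and 12.03 in untreated Col-0. COR47, a dehydrin of cold-treated leaves, was at 7.10, 8.84 and 8.69 in untreated mkk1/mkk2, against 9.15, 9.46 and 9.71 in untreated Col-0. RD2, a gene responsive to desiccation, was higher, at 10.74 ± 0.31 in untreated mkk1/mkk2 and 9.29 ± 0.09 in untreated Col-0. After BTH, mkk1/mkk2 against Col-0 gave 10 of the 41 higher and 7 lower, beside 18% and 21.2% of all probe sets, with a median of 0.04.

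The 41 genes were also counted in the tested comparisons. For BTH limma called 1 higher and 3 lower in Col-0, 0 higher and 1 lower in mkk1, and 0 higher and 3 lower in mkk2. Of all probe sets 6.36% were called higher and 6.19% lower in Col-0, 6.66% and 5.04% in mkk1, and 7.83% and 6.48% in mkk2. The medians of the 41 were -0.10, -0.03 and -0.09, beside -0.03, -0.01 and -0.06 over all probe sets. Untreated mkk1 against Col-0 gave 0 higher and 3 lower, beside 11.4% higher and 11.4% lower of all probe sets. Untreated mkk2 against Col-0 gave 1 higher and 1 lower, beside 5.28% higher and 6.93% lower. With 1 array left out the number called ranged from 0 to 4 for BTH in Col-0, 0 to 2 in mkk1, 1 to 5 in mkk2, 2 to 5 in untreated mkk1 and 0 to 3 in untreated mkk2. Called without any 1 array were HIRD11 in untreated mkk1 (-2.71 ± 0.47, adjusted p = 0.00126), AT2G23120 in untreated mkk1 (-0.65 ± 0.15, adjusted p = 0.00642, but 0.148 with all 24 arrays in the fit) and AT4G30650, a small membrane protein of the low temperature and salt family, after BTH in mkk2 (-0.77 ± 0.16, adjusted p = 0.00367). HIRD11 was at 8.10, 10.71 and 9.24 in untreated mkk1, with array A the lowest of the 3, as it was for COR15A and COR15B. Of 41 transcription factors of cold and dehydration only 1, ZAT10, had a single-gene probe set in the annotation used. The same held for 0 of 35 genes of abscisic acid synthesis and signalling and 0 of 21 osmolyte and related genes. The others were not looked for among the probe sets without a gene name, so their levels are not known from here. ZAT10, a zinc finger repressor, averaged 9.62 ± 0.24 in mkk1/mkk2 BTH and 9.70 ± 0.80 in untreated mkk1/mkk2, and 8.12 ± 0.42 in Col-0 BTH and 8.62 ± 1.03 in untreated Col-0. It was called higher after BTH in mkk2 by 1.65 (limma adjusted p = 0.0180, but 0.0708 without mkk2 BTH array A). Against untreated Col-0 it was called lower in untreated mkk2 (difference -1.85 ± 0.44, adjusted p = 0.0148, up to 0.0650 without untreated mkk2 array B) and in untreated mkk1 (difference -1.46 ± 0.44, adjusted p = 0.0256, up to 0.113 without untreated Col-0 array C), with overlapping arrays.

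**Figure D5:**
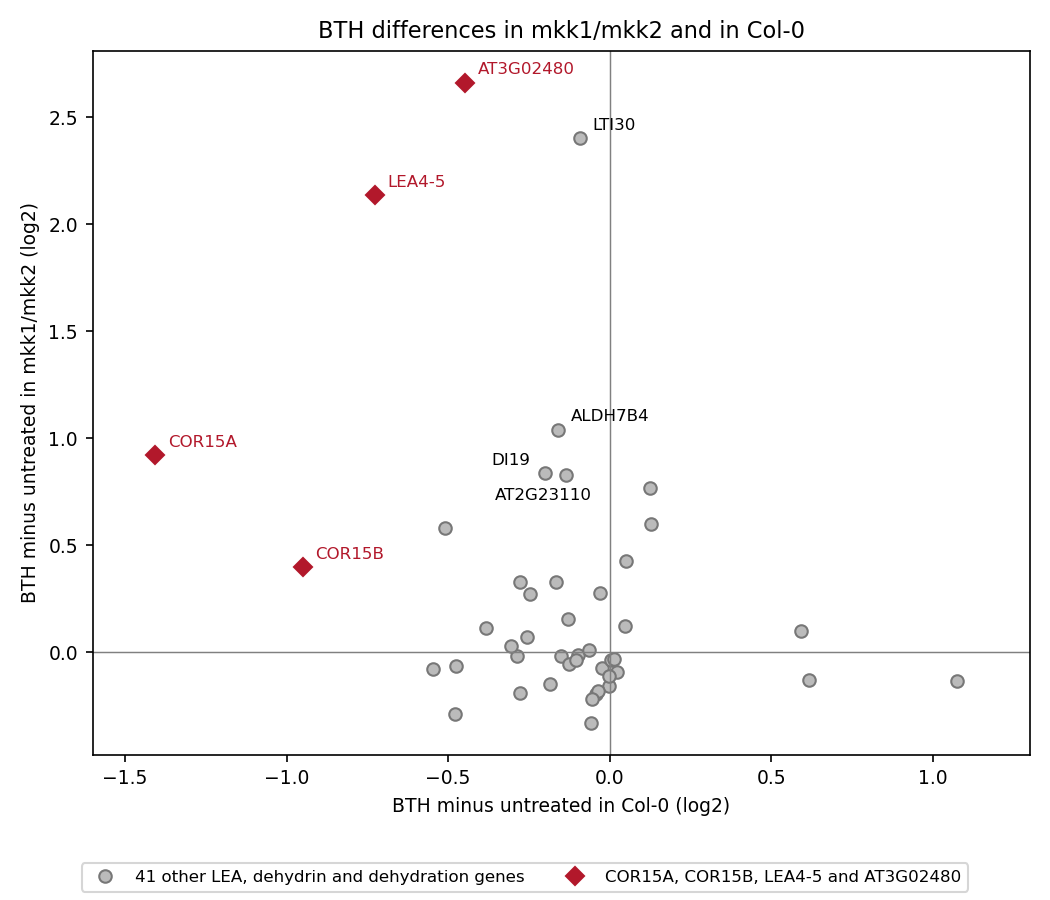
Log2 difference between BTH-treated and untreated plants in Col-0 (horizontal axis) and in mkk1/mkk2 (vertical axis), 1 point a gene, for the 4 genes (diamonds) and 41 other LEA, dehydrin and dehydration genes (circles). The 4 diamonds lie below 0 in Col-0 (-1.41 to -0.45) and above 0 in mkk1/mkk2 (0.40 to 2.66). Only COR15A was called in Col-0, and the mkk1/mkk2 arrays of COR15A and COR15B overlapped. The median circle lies at -0.10 in Col-0 and -0.02 in mkk1/mkk2. The 4 genes were chosen with their mkk1/mkk2 values in view, so nothing is read from their place against the circles. Some circles, such as LTI30 and COR47, also lie below 0 in Col-0 and above 0 in mkk1/mkk2, and others, such as M17, do not.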

How the data were processed

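The authors deposited log2 expression values, made with RMA per the submitters' processing notes. The RMA version, the genome build and which arrays were normalized together are not given in the sources used here. The values have 2 decimals and ran from 2.27 to 14.14. The number of arrays limits the precision. Of 22810 probe sets, 64 controls were set aside. The other 22746 were tested without a filter. Names came from the array annotation (13513 probe sets with 1 gene, 503 with several, 8730 with none), and 13436 of them matched the reference gene table. No 2 arrays were identical (0 of 276 pairs).

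Group means were fitted in R 4.3.3 with lmFit of limma 3.58.1, and variances were moderated by eBayes without a trend, on the 18 Col-0, mkk1 and mkk2 arrays for the 9 tests, and on all 24 arrays for the 3 described comparisons. Each comparison had its own Benjamini-Hochberg adjustment, and the threshold for a call was 0.05. Alternatives changed the arrays in the fit, the normalization, the variance model, array weights, the replicate block, the filter and each array in turn. The calculation was checked on simulated data. The 4 genes and the lists were chosen with earlier results of these data known. Tests outside mkk1/mkk2 share the Col-0 arrays with the comparisons behind that choice. Named list genes were up to 4 called with the largest change, or for mkk1/mkk2 up to 4 with the largest difference. For likeness they were the 5 highest r. COR27, LEA4-2 and the genes called without any 1 array were named after their values were seen.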

Additional observations from a re-analysis of the deposited data

How the results depend on the processing

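With 3 arrays a group and 1 probe set a gene, calls near the threshold moved with the setting. Of the 4 genes, BTH in Col-0 (1 called) gave 0 with all 24 arrays or the compared arrays alone, 2 after a further quantile normalization, median centring or a trended, robust variance, and 4 with array weights. BTH in mkk2 (1) gave 0 with all 24 arrays and 2 with array weights or without the arrays that stood apart (untreated mkk1/mkk2 A, Col-0 BTH A and untreated mkk2 B). Untreated mkk1 against Col-0 (3) gave 1 with all 24 arrays. Untreated mkk2 against Col-0 (1) gave 0 with all 24 arrays, the compared arrays alone or dim probe sets removed, which kept 2 of the 4 genes, and 3 with array weights. Array weights also gave 1 for mkk2 BTH against Col-0 BTH, 3 for the response of mkk1 and 1 for that of mkk2, each 0 otherwise. That fit put a weight of 25.5 on Col-0 BTH array B and called 14337 of all 22746 probe sets for BTH in Col-0, against 2855 without weights, 11524 against 1058 for mkk2 BTH against Col-0 BTH, and 3864 and 2573 for the responses of mkk1 and mkk2, against 0 and 4. The cause of these changes was not tested.

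Leaving out 1 array gave 0 to 2 genes for BTH in Col-0 and in mkk2, 2 to 3 for untreated mkk1, 0 to 1 for untreated mkk2 and 0 for the other tests. Directions of small, uncalled differences turned. With array weights mkk1 BTH against Col-0 BTH was 0.15 for COR15A, 0.018 for LEA4-5 and 0.23 for AT3G02480, mkk2 BTH against Col-0 BTH was 0.19 for AT3G02480, and the mkk2 response was 0.16 for COR15B. Without the arrays that stood apart, AT3G02480 in mkk1 BTH against Col-0 BTH was 0.09 and the mkk2 response of COR15A was -0.19. Such turns also came with 1 array left out. BTH against untreated ranged over -0.33 to 0.40 for COR15B in mkk1 and -0.100 to 0.015 for LEA4-5 in mkk2. In mkk1 BTH against Col-0 BTH COR15A had -0.46 to 0.14 and AT3G02480 had -0.35 to 0.15. The response of mkk1 minus that of Col-0 was -0.13 to 0.38 for AT3G02480, and that of mkk2 was -0.015 to 0.593 for COR15A, -0.46 to 0.17 for COR15B and -0.14 to 0.20 for AT3G02480. LEA4-5 in untreated mkk1/mkk2 against untreated Col-0 had -0.86 to 0.05, while the other 11 described mkk1/mkk2 differences kept their direction.

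Between groups, 84 same-letter pairs of arrays had a median correlation of deviations of 0.036, and 26 were over 0.1. The 168 pairs with different letters had a median of -0.023, and 46 were over 0.1. The highest values were 0.606 and 0.474. These values cannot settle whether the replicate letters pair some of the arrays. With the letter as a replicate block the number of genes called was 1 for BTH in Col-0, 0 in mkk1, 1 in mkk2, 3 for untreated mkk1 and 1 for untreated mkk2, as without it. No gene of the 4 or of the lists had more than 1 probe set (0), so averaging probe sets was not run.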
